A study of Homo sapiens with 52 samples.

Results

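The genes of the collagen chains were followed through senescence in WI-38 cells, a line of normal human diploid lung fibroblasts. A gene was taken as a collagen chain when its symbol was COL, a number, A and a number, and 44 of the 59408 genes in the deposited tables met that rule. Of these, 29 had a mean level of at least 10 normalized read counts over the 26 groups and were tested, and 25 had a mean of at least 100. Messenger RNA was measured by mRNA-seq, which started from total RNA per the labels. The untreated cells were between population doubling levels (PDL) 32 and 46, and they were set against cells in replicative senescence (RS) at about PDL 52 and 3 kinds of induced senescence. PMD-Sen cells had 0.0090% sodium dodecyl sulfate (SDS), a detergent that damages the plasma membrane, for 24 h. Ca2+-Sen cells had 75 mM KCl for 24 h, used to let Ca2+ into the cell, and DDR-Sen cells had 250 nM doxorubicin (DXR) for 24 h, which causes a DNA damage response. After the treatment the cells were washed and returned to fresh medium, and they were collected on day 0, which is the end of the 24 h, and then on each of the first 4 days and on days 6, 8 and 16. All groups came from the same cell line, and each held 2 libraries. Each of the 25 comparisons was made with the same 2 untreated libraries, and time in culture and treatment cannot be told apart.

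A collagen molecule is 3 chains wound into a triple helix. Fibrillar collagens (types I, II, III, V, XI, XXIV and XXVII) are secreted as procollagens, trimmed at their ends and assembled into fibrils. Type I, made of COL1A1 and COL1A2 chains, is the main one of most connective tissue, while types V and XI set the diameter of the fibrils. Type IV forms the sheet-like network of basement membranes, to which types XV and XVIII attach. Type VI builds beaded microfilaments around cells, and the fibril-associated collagens with interrupted helices (FACITs: IX, XII, XIV, XVI, XIX, XX, XXI and XXII) sit on the surface of fibrils. Lung fibroblasts are known as producers of types I, III, V and VI. Because bulk RNA was measured, fewer cells that express a gene and less of its RNA in each cell cannot be told apart here.

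The libraries held 14874024 to 53360441 recovered reads on the tested genes (median 28259417), and collagen chains took 1.64% to 3.97% of the reads of a group (median 2.83%). The 2 libraries of a group differed by a median of 0.06 to 0.18 on the log2 scale over all genes of at least 100, and by 0.03 to 0.73 over the collagen chains. The untreated libraries, which enter every comparison, differed by 0.34 over the chains. The largest gap among chains was in RS, whose libraries stood apart for COL3A1 (22571 and 63943), COL5A1 (8802 and 24408) and COL8A1 (6314 and 17353). All 8 fibroblast markers examined had a mean of 10 or more, and their summed level ran from 68345 in PMD-Sen on day 0 to 163465 in RS. Of other cell types, 1 of 4 epithelial markers reached that mean (KRT18; summed level 892 to 3239), 2 of 4 endothelial (26.5 to 173), 1 of 4 leukocyte (CD14; 13.8 to 203), 3 of 4 smooth muscle (3226 to 17794) and 3 of 4 cartilage markers (637 to 2429). KRT5, CDH5 and CD3E were at 0 in untreated cells and at most 1.03, 1.46 and 2.64 elsewhere. On the same epithelial, endothelial and leukocyte lists, EPCAM was at 12.7, KRT18 at 1358, VWF at 34.1 and CD14 at 21.4 in untreated cells. CDH1, PECAM1, KDR, PTPRC and CD68 were at 2.17 or less there. Some markers had their highest level in single groups, PECAM1 and KRT18 on day 0 of Ca2+-Sen, PTPRC on day 2 of DDR-Sen and COMP on day 0 of PMD-Sen. The part of these markers in the results was not tested. All levels are normalized read counts, brought to 1 scale across tables. Values of 2 libraries are given with the library of the larger size factor first.

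The type IV chain genes are arranged in pairs that point away from each other, and the DNA between the 2 starts of a pair is shown because the 2 pairs moved in opposite directions late in PMD-Sen and DDR-Sen. COL4A1 (chr13:110148963-110307157, minus strand) and COL4A2 (chr13:110307284-110513209, plus strand) have 126 bases between their starts. COL4A6 (chrX:108155614-108439458, minus strand) and COL4A5 (chrX:108439838-108697545, plus strand) have 379 bases between theirs (RefSeq, GRCh38.p14, a release of the build named for the deposited tables). The first run is the whole interval of the first pair on the plus strand, chr13:110307158-110307283, which is 5′ flanking and not transcribed in that annotation. The second is the 250 bases before the COL4A5 start on the plus strand, chrX:108439588-108439837. The third is the remaining 129 bases, those next to the COL4A6 start, read on the minus strand on which COL4A6 lies, chrX:108439459-108439587. Capitals mark CCAAT (or ATTGG on the other strand) and GGGCGG (or CCGCCC), motifs common in promoters, and TATAAA was searched as well on both strands; these motifs do not overlap.
COL4A1-COL4A2 interval: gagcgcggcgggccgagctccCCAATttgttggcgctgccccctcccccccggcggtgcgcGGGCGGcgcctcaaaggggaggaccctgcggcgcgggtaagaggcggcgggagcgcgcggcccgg
COL4A5 upstream: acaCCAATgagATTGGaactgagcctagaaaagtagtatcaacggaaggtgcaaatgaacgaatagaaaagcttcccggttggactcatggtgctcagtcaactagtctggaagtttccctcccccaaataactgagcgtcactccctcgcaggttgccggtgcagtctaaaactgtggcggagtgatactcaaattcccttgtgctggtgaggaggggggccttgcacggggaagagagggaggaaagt
COL4A6 upstream: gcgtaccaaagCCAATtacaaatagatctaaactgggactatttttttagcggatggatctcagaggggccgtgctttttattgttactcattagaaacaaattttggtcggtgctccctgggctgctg
The first interval had a G and C content of 80.2%, with 1 CCAAT and 1 GGGCGG. Among the 27305 genes of the promoter table, 21.9% and 34.6% held these motifs in a window of the same length before their start. The COL4A5 window (51.2% G and C) held CCAAT 2 times and the COL4A6 window (43.4%) held it 1 time, against 33.0% and 22.2% of all windows of 250 and 129 bases. Neither of the last 2 windows held GGGCGG, which is in 42.3% and 35.0% of windows of those lengths. TATAAA was in none of the 3, and is in 6.23%, 11.1% and 6.32% of windows of 126, 250 and 129 bases. These matches describe the letters only.

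Collagen chains were mostly lower after SDS. On day 0 of PMD-Sen 15 of 29 chains were lower and 4 higher than in untreated cells, where 20.2% of all 14876 genes tested were called lower and 19.8% higher (two-sided Wald test on the deposited fold change and its standard error, Benjamini-Hochberg adjusted over all genes, adjusted p under 0.05). On day 1, 19 were lower and 3 higher (10% and 9.65% of all genes), and on day 2, 20 were lower (7% of all genes). On that day 0 chains were called higher, against 8.81% of all genes. By an unadjusted p under 0.05, 23 chains passed in either direction, as did 3850 of the 14876 genes tested. Limma on the reads of each library called 1 chain higher. The median log2 fold change of the 29 chains was -0.57, -0.94 and -0.90 on days 0, 1 and 2, while that of all genes tested was -0.0046, -0.0011 and 0.016. By day 16, 8 chains were lower and 3 higher (11.6% and 9.64% of all genes), with a median of -0.062 beside 0.006. The share of chains called lower was thus above that of all genes on days 0, 1 and 2. The cartilage marker COMP was at its highest on day 0 of PMD-Sen, at 219 against 6.99 in untreated cells. On the same list ACAN was at 0 in that group, against 0.158 in untreated cells, and SOX9 and MATN3 were highest in other groups. The part of these markers in the result was not tested.

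In Ca2+-Sen most called chains were lower on day 0, and on day 8 more were higher than lower. On day 0, 14 were lower and 4 higher (26.6% and 23.6% of all genes). The endothelial marker PECAM1, at 106 against 2.17 in untreated cells, and the epithelial marker KRT18, at 3218 against 1358, were at their highest on that day. On the same day the endothelial marker CDH5 and the epithelial marker KRT5 were under 1.46 and 1.03. On day 1, 8 chains were lower and 2 higher (7.15% and 5.37%). On day 2, 8 were lower (2.57%) and 0 higher (1.77%). An unadjusted p under 0.05 in either direction was found for 12 chains and for 1973 of the 14876 genes tested. Limma called 5 on day 2, all lower, against 6.31% of all genes by that test. On day 8, 10 chains were higher and 7 lower (15.5% and 17.8%), and the median of the chains was 0.15 beside -0.004 over all genes. Limma called 8 higher and 7 lower on day 8, where it called 45.1% of all genes. The leukocyte marker CD14 was at its highest on that day, at 200.5 against 21.4 in untreated cells. The summed level of all 4 leukocyte markers was 202.6 there, so CD14 made up nearly all of it. The part of these markers in the result was not tested. On day 16, 2 were higher and 9 lower (5.79% and 6.09%).

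In DDR-Sen few chains were called at the end of treatment, and most of those called later were lower. On day 0, 5 were higher and 2 lower (13% and 14.9% of all genes), so the share of chains called was near or below that of all genes. On day 1, 6 were higher and 9 lower (8.52% and 11%). On day 2, 3 were higher and 11 lower (5.19% and 7.49%), a total that limma put at 9 against 21.1% of all genes. The leukocyte marker PTPRC was at its highest on that day, at 19.4 against 0.209 in untreated cells. On the same list CD14, CD68 and CD3E were highest in other groups, CD68 and CD3E at no more than 4.86 and 2.64. The part of these markers in the result was not tested. On day 16, 7 chains were higher and 12 lower (13.2% and 16.7%). In RS, 3 were higher and 7 lower (11.6% and 11.6%). Limma called 17 of 28 chains in RS, against 49.5% of all genes, and 12 to 19 with 1 of the 4 libraries left out.

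**Figure D1:**
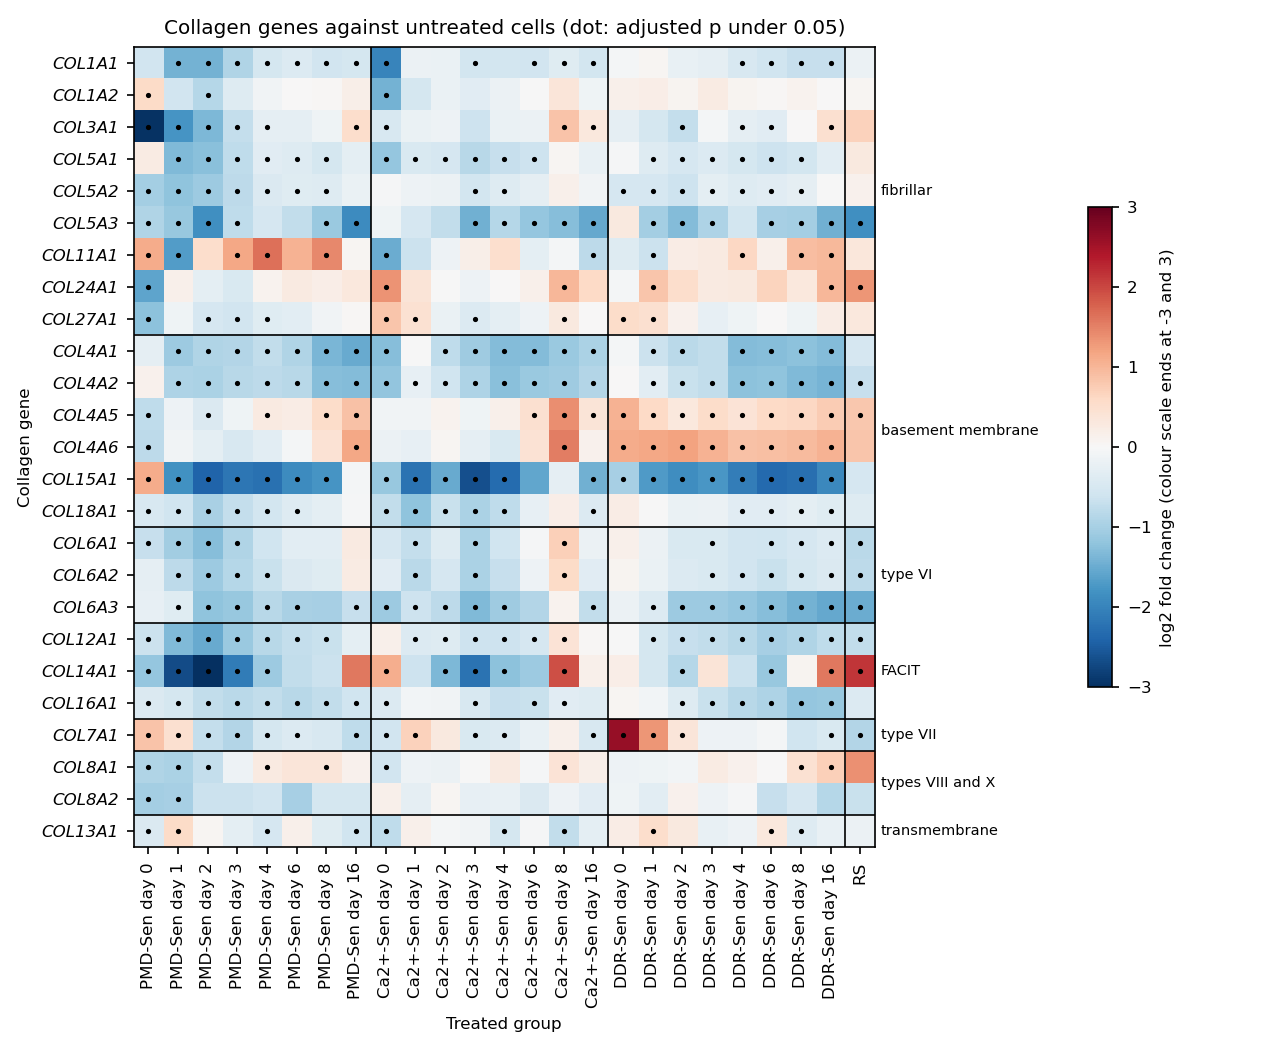
Log2 fold change against untreated cells for the 25 collagen genes of mean level 100 or more (rows, by class) in 25 treated groups of 2 libraries (columns); red is higher, blue is lower, and a dot marks an adjusted p under 0.05. COL4A1 and COL4A2 are blue in nearly every column, COL4A5 and COL4A6 are red across DDR-Sen, and COL3A1 is darkest in PMD-Sen on day 0 (-2.96).

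Among the fibrillar chains, 6 of 9 tested were lower on day 1 of PMD-Sen (median log2 fold change -1.20, beside -0.0011 over all genes), and 7 were lower on day 2, where 10% and 7% of all genes were called lower. On day 0 of Ca2+-Sen 5 were lower and 2 higher, beside 26.6% and 23.6% of all genes. With DXR 1 was lower and 1 higher on day 0, beside 14.9% and 13%. The higher chains of Ca2+-Sen and those called in DDR-Sen were thus near or below the shares of all genes. COL1A1 (chr17:50184101-50201631), which gives 2 of the 3 chains of a type I molecule, had the highest level per kilobase of transcript of all chains in untreated cells, 40071 normalized reads per kb, followed by COL1A2 with 31320.0. The untreated libraries held 302467 and 236620.0 normalized reads of COL1A1. After SDS, on day 0, only a group level could be had, 182028, which lay below both untreated libraries and was not called (log2 fold change -0.57 ± 0.34, SE; adjusted p = 0.193). On day 1 it fell to 107936 and 93419 (-1.42 ± 0.11, adjusted p = 1.52e-36), and was 97111 and 105212 on day 2. The libraries of days 1 and 2 lay far under both untreated ones. In Ca2+-Sen it fell on day 0, to 72109 and 64683 (-1.98 ± 0.11, adjusted p = 7.24e-70), and had 244253 and 229243 on day 1, of which the first lay within the untreated range and the second just under it. In DDR-Sen it was 256553 and 258668 on day 0 (-0.07 ± 0.12, adjusted p = 0.77) and fell late, to 162919 and 169047 on day 16 (-0.70 ± 0.13, adjusted p = 3.62e-07). COL1A1 was called in 16 of 25 comparisons, lower in each. In RS only the group level could be had, 238191 (-0.18 ± 0.36, adjusted p = 0.789).

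The partner chain COL1A2 (chr7:94394895-94431227) was called in 3 of 25 comparisons. It held 193818 and 145105 normalized reads in untreated cells. It rose on day 0 of PMD-Sen to a group level of 253460.0 (0.58 ± 0.12, adjusted p = 8.20e-06; the reads of single libraries were not recovered) and fell on day 2, with 87684 and 99040.3 reads (-0.86 ± 0.22, adjusted p = 0.00169). The other fall was on day 0 of Ca2+-Sen, with 62523 and 64070.0 (-1.42 ± 0.11, adjusted p = 9.95e-34). The ratio of COL1A1 to COL1A2 reads, with no correction for length, was 1.56 and 1.63 in the untreated libraries. Both libraries lay below that range in 18 of the 20 treated groups where single libraries could be given, above it in 1 and across it in 1. On day 16 every library lay below the untreated pair, with ratios of 1.00 and 0.958 in PMD-Sen, 1.18 and 1.20 in Ca2+-Sen and 0.984 and 0.971 in DDR-Sen. The group above was Ca2+-Sen on day 1, with 2.01 and 2.03. The lowest ratio of group levels was 0.718, on day 0 of PMD-Sen. All these ratios share the 2 untreated libraries, and none was tested.

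**Figure D2:**
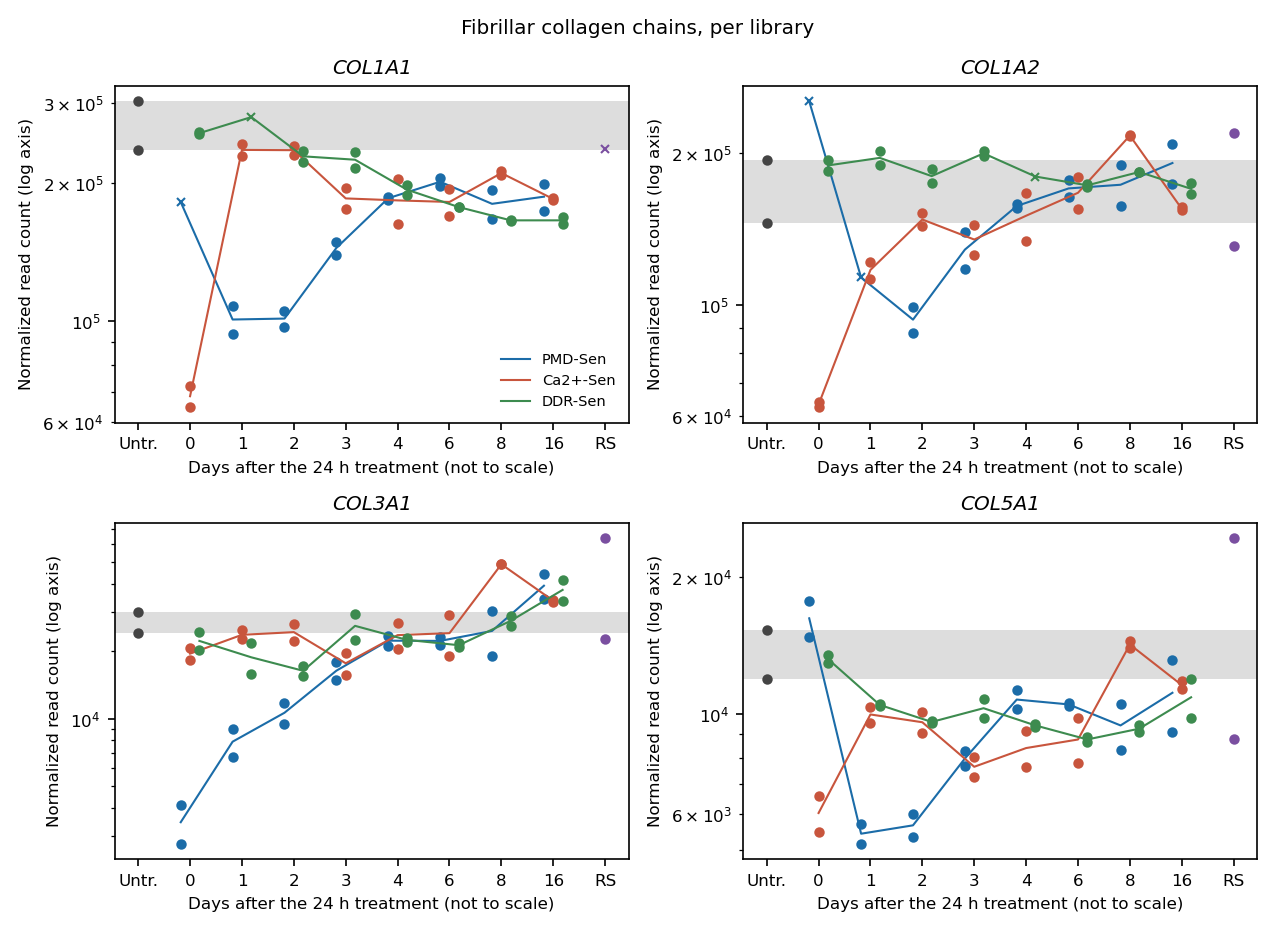
Normalized read counts (log axis) of 4 fibrillar chain genes by day; dots are single libraries, crosses are group levels where single libraries were not recovered, lines join group levels and the grey band spans the 2 untreated libraries. COL3A1 is lowest in PMD-Sen on day 0 (2768 and 4140) and the 2 RS libraries are far apart for COL3A1 and COL5A1.

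COL3A1, the single chain of type III collagen, which forms thin fibrils with type I in extensible tissues such as lung, ranged 14.1-fold between its highest and lowest group, second to COL14A1 among the 25 chains of mean level 100 or more. The untreated libraries held 29952 and 23967 and those of PMD-Sen on day 0 held 2768 and 4139.7, so that it fell 7.81-fold (-2.96 ± 0.33, adjusted p = 2.76e-18). This was the lowest level of the gene in any group. It came up in steps, with 9009 and 6774 on day 1 and 9472 and 11772 on day 2, and reached 34095 and 44116 on day 16, above both untreated libraries (0.54 ± 0.18, adjusted p = 0.0141). The fall on day 0 of Ca2+-Sen went to 20623 and 18327 (-0.47 ± 0.11, adjusted p = 5.45e-05), and day 8 had 48750.1 and 48737 (0.85 ± 0.10, adjusted p = 2.28e-17). In DDR-Sen it fell on day 2 (17149.8 and 15525; -0.72 ± 0.10, adjusted p = 9.76e-11) and was raised on day 16 (33514 and 41410.5; 0.47 ± 0.14, adjusted p = 0.00295). RS, with libraries on either side of the untreated pair, had a value of 0.68 ± 0.71 (adjusted p = 0.557). COL3A1 was thus called higher on day 16 of all 3 inducers, while COL1A1 was called lower on that day in all 3. With limma on the reads of each library COL3A1 was not called on day 16 of PMD-Sen, Ca2+-Sen or DDR-Sen (adjusted p = 0.127, 0.47 and 0.171), nor on day 0 of Ca2+-Sen (0.161) or day 2 of DDR-Sen (0.0714).

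The type V chains COL5A1 and COL5A2, which are built into type I fibrils and limit their width, were each called only lower, in 18 and 16 of 25 comparisons. They parted at the end of treatment. After SDS on day 0 COL5A1 was 14732 and 17707 against 15288 and 11891 in untreated cells (0.25 ± 0.13, adjusted p = 0.0979), and COL5A2 was 12189 and 13120.0 against 26491 and 24823 (-1.02 ± 0.09, adjusted p = 6.31e-27). With KCl on day 0 the chains were the other way round: COL5A1 fell to 6592 and 5476 (-1.17 ± 0.12, adjusted p = 2.02e-20) and COL5A2 was 26332 and 23823 (-0.03 ± 0.08, adjusted p = 0.776). In each group 1 chain had both libraries below the untreated pair and the other did not. The ratio of COL5A1 to COL5A2 reads was therefore 1.21 and 1.35 in the former and 0.250 and 0.230 in the latter, on either side of 0.577 and 0.479 in untreated cells. In 14 of 25 groups the libraries' ratios overlapped the untreated pair. COL5A3, a further type V chain of low level (281 and 212), was called lower in 18 of 25 comparisons. On day 16 it was 71.0 and 61.6 in PMD-Sen (-1.89 ± 0.31), 84.5 and 87.0 in Ca2+-Sen (-1.52 ± 0.27) and 65.2 and 118 in DDR-Sen (-1.44 ± 0.32), and in RS it was 46.6 and 92.2 (-1.83 ± 0.41; adjusted p = 2.91e-08, 1.02e-06, 7.77e-05 and 0.0001).

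COL11A1, a type XI chain best known in cartilage and in activated fibroblasts, started from 189.6 and 239.8 reads. It rose on day 0 of PMD-Sen to 482 and 449 (1.12 ± 0.22, adjusted p = 1.82e-06), fell on day 1 to 86.8 and 44.9 (-1.67 ± 0.34, adjusted p = 1.46e-05) and rose again to 575 and 766 on day 4 (1.65 ± 0.20, adjusted p = 1.79e-14). On day 16 its libraries, 179 and 268, overlapped the untreated ones. The libraries thus lay above, below and again above the untreated pair within 4 days. In Ca2+-Sen it fell on day 0 (88.1 and 63.9; -1.48 ± 0.28, adjusted p = 9.04e-07) and on day 16 (131 and 116; -0.79 ± 0.27, adjusted p = 0.0275). In DDR-Sen it was higher on day 16 (272 and 566; 0.96 ± 0.30, adjusted p = 0.00623), with libraries that lay far apart. Limma did not call either of the day 16 changes (adjusted p = 0.146 and 0.0517).

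COL24A1 and COL27A1 encode fibrillar chains found in developing bone and cartilage, and on day 0 both were lower in PMD-Sen and higher in Ca2+-Sen. COL24A1 had 114 and 155 reads in untreated cells, 46.8 and 43.0 in PMD-Sen (-1.58 ± 0.39, adjusted p = 0.000252) and 369 and 309 in Ca2+-Sen (1.34 ± 0.24, adjusted p = 8.23e-08). It was also higher on day 16 of DDR-Sen (274 and 258; 0.99 ± 0.27, adjusted p = 0.00131) and in RS (297 and 373; 1.32 ± 0.29, adjusted p = 7.27e-05). The groups did not overlap the untreated libraries in any of these cases. COL27A1 went from 1046 and 989 to 532 and 341 in PMD-Sen (-1.22 ± 0.20, adjusted p = 4.49e-09) and to 1891 and 1709.6 in Ca2+-Sen (0.82 ± 0.11, adjusted p = 3.86e-12). It also rose to 1539 and 1457 on day 0 of DDR-Sen (0.56 ± 0.12, adjusted p = 6.55e-05). On day 16 and in RS COL27A1 was not called.

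The type IV pairs moved in opposite directions by day 16 of PMD-Sen and DDR-Sen. On day 8 of Ca2+-Sen, too, COL4A2 was called lower while COL4A5 and COL4A6 were higher. Of the 6 basement membrane chains tested, 2 were higher and 4 lower on day 16 of DDR-Sen (median log2 fold change -0.83, beside -0.014 over all genes, of which 13.2% were higher and 16.7% lower). COL4A1 and COL4A2, whose products form the heterotrimer found in almost all basement membranes, were called lower in 20 and 23 of 25 comparisons and higher in none. COL4A1 had 24143 and 26932 reads in untreated cells and fell by day 16 to 8789 and 9250.2 in PMD-Sen (-1.50 ± 0.13, adjusted p = 7.86e-27), 13205 and 13347 in Ca2+-Sen (-0.94 ± 0.08, adjusted p = 4.69e-33) and 9551 and 11225 in DDR-Sen (-1.30 ± 0.12, adjusted p = 5.18e-26). The COL4A2 values at the same times were 15269 and 16392, 20775 and 21794 and 14775 and 15026, against 40118 and 38379 (-1.31 ± 0.13, -0.88 ± 0.07 and -1.40 ± 0.10). For both genes every day 16 library lay below both untreated libraries. On day 0 neither was called in PMD-Sen or DDR-Sen, whereas in Ca2+-Sen COL4A1 was 10773 and 10259 (-1.28 ± 0.08) and COL4A2 was 16497 and 17908 (-1.19 ± 0.08). In RS COL4A2 fell to 21052 and 27474 (-0.69 ± 0.19, adjusted p = 0.00205) and COL4A1 was 12948 and 23214 (-0.50 ± 0.29, adjusted p = 0.218). The ratio of COL4A1 to COL4A2 reads was 0.602 and 0.702 in untreated cells, and the ratios of 18 of 25 treated groups overlapped that pair. The exceptions included Ca2+-Sen on day 1 (0.777 and 0.755) and PMD-Sen on day 0 (0.445 and 0.531).

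COL4A5 and COL4A6, the pair on chromosome X, encode chains of the basement membranes of kidney, skin and smooth muscle. They were called higher in 15 and 10 of 25 comparisons and lower in 2 and 1. In DDR-Sen they were raised by day 0, COL4A5 from 1807 and 1813 to 3393 and 4039 (1.04 ± 0.12, adjusted p = 1.60e-15) and COL4A6 from 416 and 446 to 859 and 992 (1.11 ± 0.16, adjusted p = 3.03e-11). Both were called higher at all 8 collections of DDR-Sen, with COL4A6 at 811 and 954 on day 16. In PMD-Sen both were lower on day 0, COL4A5 at 1055 and 1076 (-0.76 ± 0.12, adjusted p = 4.39e-09) and COL4A6 at 313 and 186 (-0.78 ± 0.25, adjusted p = 0.00565). By day 16 of PMD-Sen both were above the untreated libraries, COL4A5 at 2771 and 3939 (0.89 ± 0.19, adjusted p = 4.20e-05) and COL4A6 at 697 and 1229.7 (1.16 ± 0.26, adjusted p = 0.00015). In Ca2+-Sen the highest values came on day 8, 4696 and 4849.5 for COL4A5 (1.40 ± 0.08, adjusted p = 2.26e-60) and 1249 and 1244 for COL4A6 (1.53 ± 0.13, adjusted p = 3.15e-31). The 2 libraries of that day were close together for both genes. Day 16 of Ca2+-Sen was lower again, with 2313 and 2446 (0.39 ± 0.10, adjusted p = 0.000728) and 482 and 457 (0.13 ± 0.17, adjusted p = 0.789). In RS COL4A5 rose to 3069 and 3296 (0.81 ± 0.15, adjusted p = 6.42e-07), while the COL4A6 libraries differed, 1063 and 465 (0.83 ± 0.38, adjusted p = 0.106). COL4A3 and COL4A4, the pair on chromosome 2, had mean levels under 10 and were not tested.

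**Figure D3:**
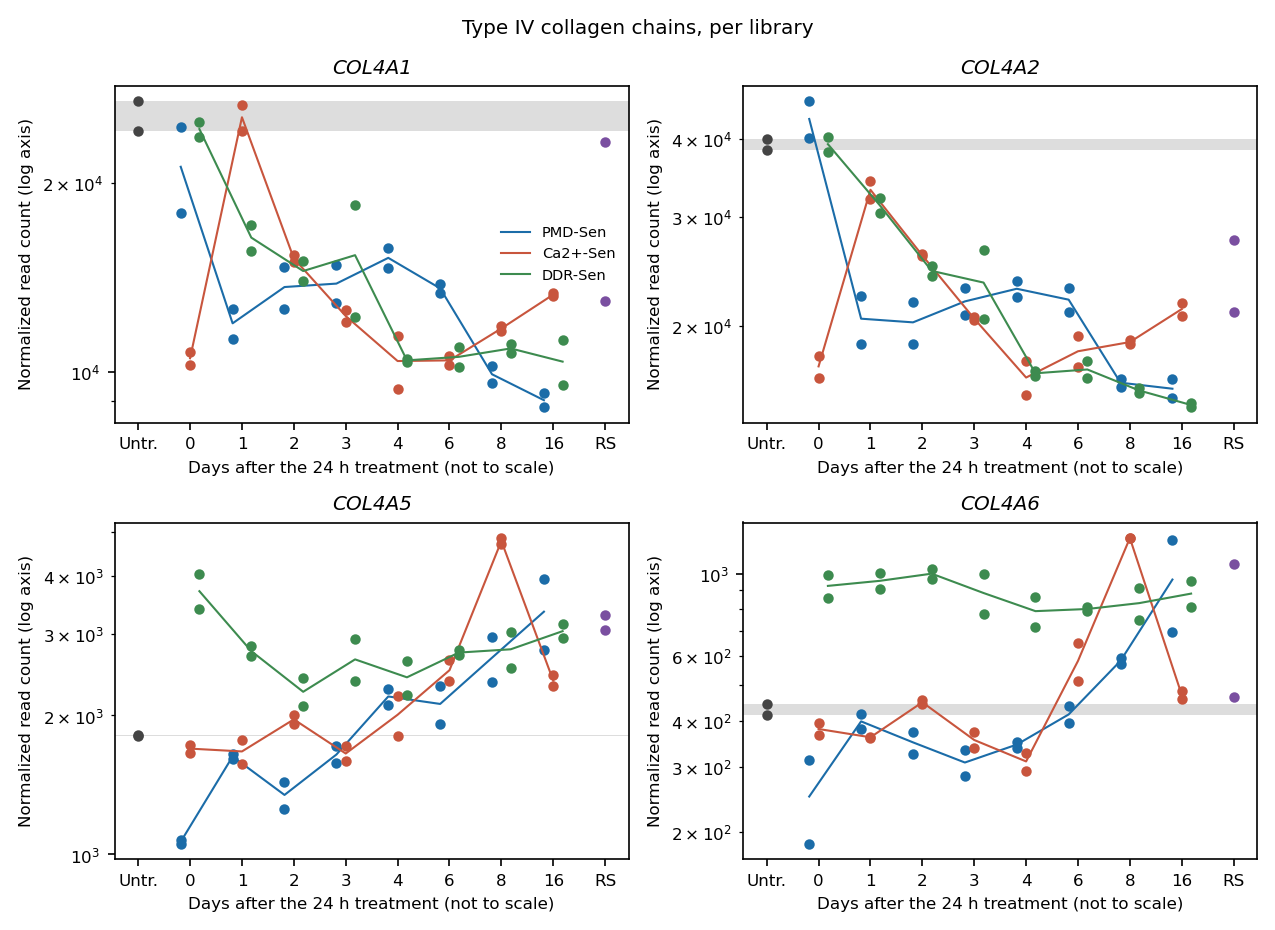
Normalized read counts (log axis) of COL4A1, COL4A2, COL4A5 and COL4A6 by day; dots are single libraries, lines join group levels and the grey band spans the 2 untreated libraries. On day 16 all libraries of COL4A1 and COL4A2 lie below the untreated band and all those of COL4A5 and COL4A6 lie above it, although the change of COL4A6 in Ca2+-Sen was not called.

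COL15A1 encodes the core of type XV, a proteoglycan that ties basement membrane to the fibrils next to it. It was called lower in 20 of 25 comparisons and higher in 1. The rise was on day 0 of PMD-Sen, to 1044 and 857 from 519 and 357 (1.12 ± 0.19, adjusted p = 7.69e-08), and 1 day later it had 121 and 130.2 (-1.81 ± 0.24, adjusted p = 2.13e-12). In Ca2+-Sen it was 185 and 219 on day 0 (-1.13 ± 0.22) and 94.1 and 95.9 on day 1 (-2.21 ± 0.23), and in DDR-Sen 228 and 215 (-0.99 ± 0.21) and 104 and 127 on day 16 (-1.93 ± 0.25), all called. Day 0 of DDR-Sen was not called by limma (adjusted p = 0.0621). The day 16 libraries of PMD-Sen, 186 and 653, lay on either side of the untreated pair and gave -0.06 ± 0.87 (adjusted p = 0.975). COL18A1, whose C-terminal end is the source of endostatin, was called lower in 16 of 25 comparisons. Its largest fall was on day 1 of Ca2+-Sen, with 1938 and 1834 against 4688 and 4021 (-1.21 ± 0.10, adjusted p = 3.72e-32). On day 0 of DDR-Sen COL18A1 was 4883 and 5209 (0.21 ± 0.12, adjusted p = 0.172).

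The 3 tested type VI chains were all lower in PMD-Sen on days 1 and 2 and in RS, with median log2 fold changes of -0.79, -1.21 and -0.80. The medians over all genes were -0.0011, 0.016 and 0.014. On day 1 COL6A3 fell less than COL6A1, to 84071 and 82746 beside 29956 and 30650 for COL6A1. Other groups had such falls too. On day 3 of Ca2+-Sen the group levels of COL6A1, COL6A2 and COL6A3 were 32423, 28792 and 42853, against 62395, 55955 and 106966 in untreated cells. On day 16 COL6A3 was called lower with all 3 inducers, and COL6A1 and COL6A2 in DDR-Sen, where limma did not call them (adjusted p = 0.115 and 0.0612). A type VI molecule is commonly made of COL6A1, COL6A2 and COL6A3. COL6A1 and COL6A2 are both on chromosome 21, and COL6A3 is on chromosome 2. COL6A1 had 72239 and 52543 reads in untreated cells, 23059.5 and 28178 on day 2 of PMD-Sen (-1.28 ± 0.26, adjusted p = 1.88e-05) and 30708 and 40898 in RS (-0.80 ± 0.24, adjusted p = 0.0053). COL6A2 had 64068 and 47835, 25149 and 27783 and 28468 and 36466 in the same groups (-1.08 ± 0.11 and -0.79 ± 0.22). Both rose on day 8 of Ca2+-Sen, COL6A1 to 99944 and 103465 (0.70 ± 0.23, adjusted p = 0.00864) and COL6A2 to 83073 and 84222 (0.58 ± 0.21, adjusted p = 0.0203). The libraries of that day lay above both untreated ones for both genes. COL6A3, from 121559 and 92361, was 116095 and 115875 on that day (0.12 ± 0.11, adjusted p = 0.451). It was called lower in 20 of 25 comparisons, among them day 16 of DDR-Sen with 42596 and 31660.2 (-1.53 ± 0.15, adjusted p = 1.51e-21) and RS with 42441 and 33587 (-1.49 ± 0.22, adjusted p = 2.24e-10). The reads of COL6A3 over those of COL6A1 were 1.68 and 1.76 in untreated cells, and both libraries lay below that pair in 17 of the 21 groups with values, above it in 3 and across it in 1. On day 16 the ratio was 0.843 and 0.914 in PMD-Sen, 1.15 and 1.20 in Ca2+-Sen and 0.904 and 0.679 in DDR-Sen. The highest ratio of group levels was on day 1 of PMD-Sen, 2.81 and 2.70 in its libraries. COL6A1 over COL6A2, set side by side in the same way, ranged from 0.830 in PMD-Sen on day 0 to 1.25 in Ca2+-Sen on day 16 as group levels, from 1.13 and 1.10 in untreated cells.

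**Figure D4:**
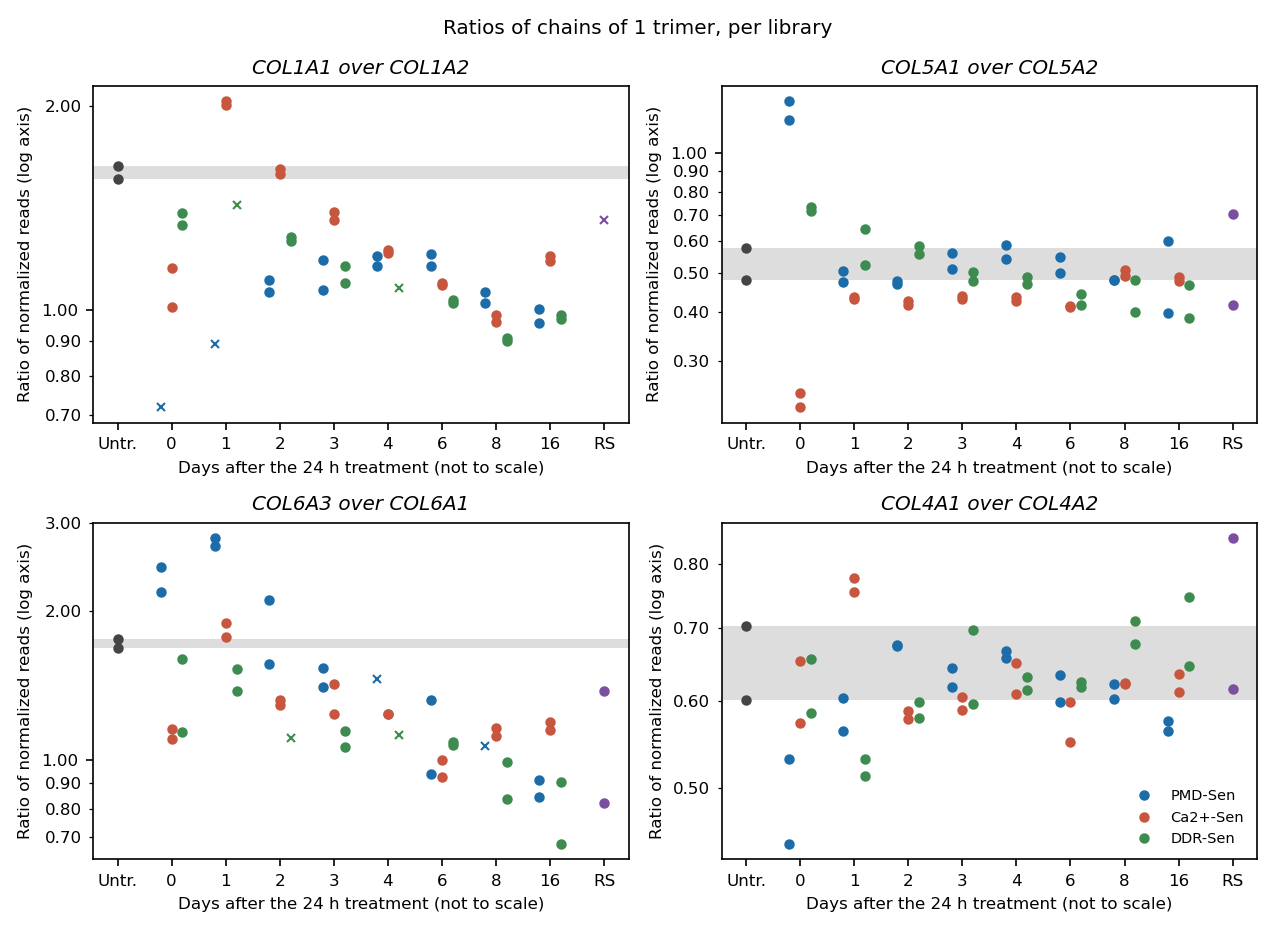
Ratio of the normalized reads (log axis, no correction for length) of 2 chains of 1 trimer by day; dots are single libraries, crosses are ratios of group levels where single libraries were not recovered, and the grey band spans the 2 untreated libraries. COL1A1 over COL1A2 and COL6A3 over COL6A1 lie below the band in most groups, while COL4A1 over COL4A2 mostly overlaps it.

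Of the FACITs, COL12A1 and COL16A1 were lower in most groups and COL14A1 went both ways. On day 1 of PMD-Sen 4 of 5 tested were lower, with a median log2 fold change of -1.33, where 10% of all genes were lower and their median was -0.0011. COL12A1, a chain that links fibrils in tissues under load, was called lower in 20 of 25 comparisons and higher in 1. It had 39007 and 29839 reads in untreated cells and fell in PMD-Sen to 12639 and 11398 on day 2 (-1.52 ± 0.11, adjusted p = 1.43e-39). The rise was on day 8 of Ca2+-Sen, to 46225 and 45638 (0.42 ± 0.11, adjusted p = 0.000458). On day 16 it was 20129 and 20417 in DDR-Sen (-0.76 ± 0.13, adjusted p = 7.13e-08) and 33595 and 37312 in Ca2+-Sen (0.04 ± 0.10, adjusted p = 0.907). COL16A1 was called lower in 18 of 25 comparisons, with 1785 and 1895 on day 16 of DDR-Sen against 4683 and 3358 (-1.13 ± 0.15, adjusted p = 4.65e-12).

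COL14A1, a FACIT of mature fibrils, had the widest range of the chains of mean level 100 or more, 41.3-fold, at a low level (191 and 176 reads in untreated cells). It fell in PMD-Sen to 24.2 and 34.6 on day 1 (-2.67 ± 0.36, adjusted p = 6.03e-12) and 14.9 and 24.8 on day 2 (-3.22 ± 0.34, adjusted p = 5.79e-19). In both groups the libraries lay far below the untreated pair. In Ca2+-Sen it rose on day 0 to 368 and 410.1 (1.08 ± 0.20, adjusted p = 3.47e-07), fell to 44.6 and 34.9 on day 3 (-2.20 ± 0.33) and rose to 676 and 721 on day 8 (1.93 ± 0.17, adjusted p = 1.94e-27). It was higher on day 16 of DDR-Sen (449 and 659.7; 1.59 ± 0.24, adjusted p = 3.15e-10) and in RS (481 and 1143; 2.15 ± 0.41, adjusted p = 2.50e-06). The 2 libraries of PMD-Sen on day 16, 287 and 807, were both above the untreated ones but far apart (1.58 ± 0.71, adjusted p = 0.102). By limma the rise on day 0 of Ca2+-Sen was not called (adjusted p = 0.103). COL9A2, a type IX chain with a mean under 100, rose on day 0 of DDR-Sen to 133 and 159 from 66.8 and 78.4 (1.01 ± 0.30, adjusted p = 0.00508) and fell on day 1 of PMD-Sen, to 28.5 and 12.7 (-1.77 ± 0.54, adjusted p = 0.00724). COL9A3 ranged from 4.13 to 21.7 and was called in none of the 25 comparisons by the Wald test.

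COL7A1, the chain of the anchoring fibrils that fasten epidermis to dermis, gave the largest rise of the 29 tested chains on day 0. Its libraries held 2838 and 2299 reads in untreated cells and 14353 and 16876 on day 0 of DDR-Sen, so that it rose 6.08-fold (2.60 ± 0.13, adjusted p = 1.63e-84). It was 6503 and 6342 on day 1 (1.32 ± 0.11, adjusted p = 1.24e-32), 3663 and 2969 on day 2 (0.37 ± 0.13, adjusted p = 0.0297) and 2138 and 1577 on day 16 (-0.47 ± 0.16, adjusted p = 0.0162). Days 0 and 1 stood far above the untreated pair. In PMD-Sen it rose on day 0 to 4639 and 4614 (0.85 ± 0.12, adjusted p = 1.27e-11). In Ca2+-Sen it fell on day 0 to 1907 and 1533 (-0.58 ± 0.13, adjusted p = 5.75e-05), and on day 1 it stood at 4483 and 3818 (0.69 ± 0.11, adjusted p = 4.07e-08). On day 16 it was lower with all 3 inducers, at 1428 and 1620.1 in PMD-Sen and 1683 and 2020.0 in Ca2+-Sen, and in RS it was 1752 and 1019 (-0.89 ± 0.29, adjusted p = 0.0134). Limma did not call day 2 of DDR-Sen or day 16 of Ca2+-Sen and DDR-Sen (adjusted p = 0.218, 0.115 and 0.0572).

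**Figure D5:**
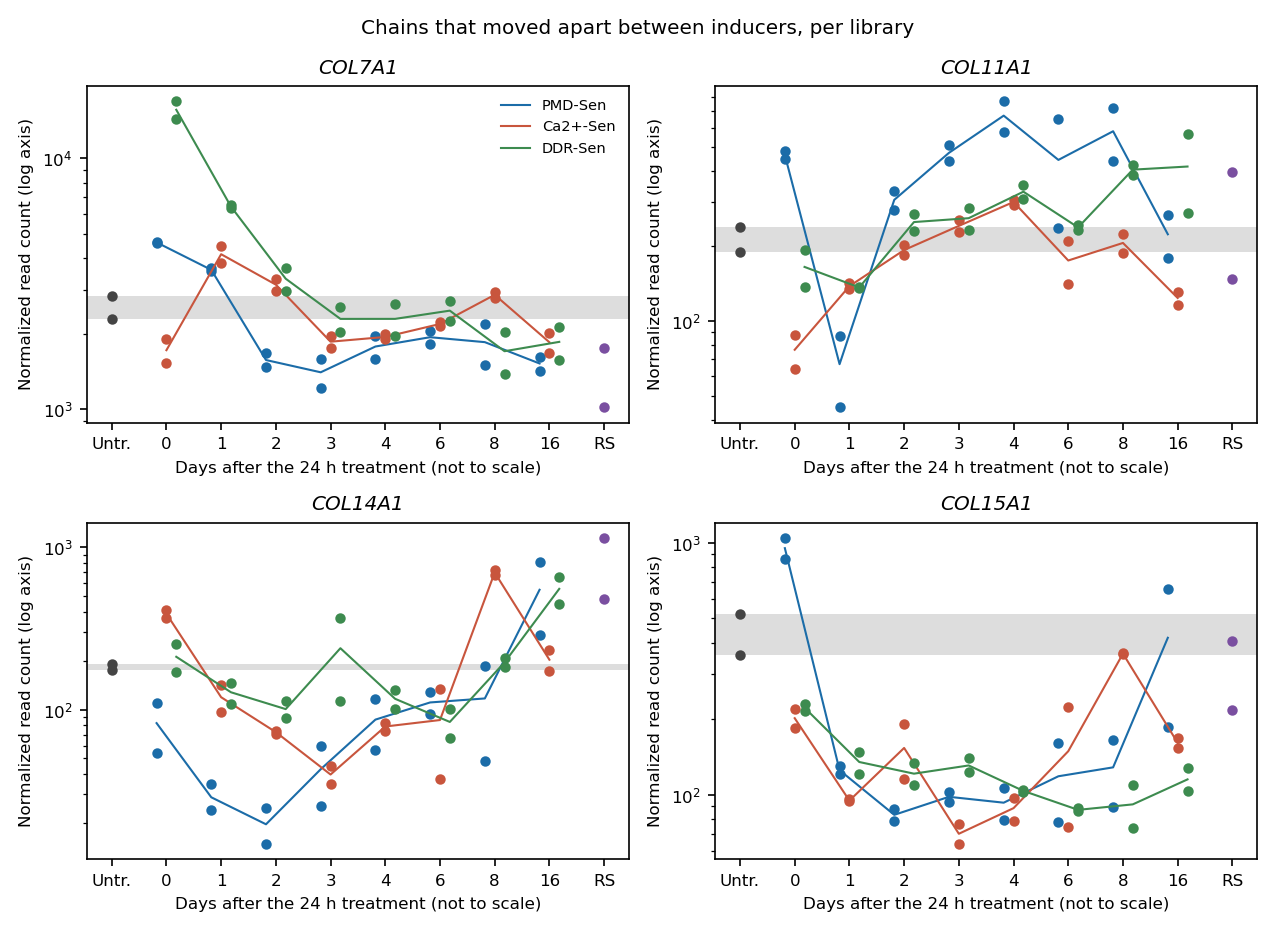
Normalized read counts (log axis) of COL7A1, COL11A1, COL14A1 and COL15A1 by day; dots are single libraries, lines join group levels and the grey band spans the 2 untreated libraries. COL7A1 is far above the band in DDR-Sen on days 0 and 1, and COL15A1 is above it in PMD-Sen on day 0 and below it in most later groups.

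The type VIII chains, of a network-forming short-chain collagen of vessel walls and cornea, were both lower on day 0 of PMD-Sen. COL8A1 went from 5001 and 4172 to 2222 and 2706 on day 0 of PMD-Sen (-0.90 ± 0.13, adjusted p = 3.98e-11) and COL8A2 from 163 and 114 to 81.5 and 56.3 (-1.01 ± 0.38, adjusted p = 0.0219). Neither chain overlapped its untreated libraries. Late in DDR-Sen COL8A1 rose, to 6576 and 8406 on day 16 (0.71 ± 0.14, adjusted p = 6.49e-06), while COL8A2 was 55.1 and 99.5 (-0.85 ± 0.38, adjusted p = 0.0764). The ratio of COL8A1 to COL8A2 reads was above the untreated pair (30.7 and 36.6) in both libraries of 15 of 25 groups. COL8A1 in RS had libraries far apart and a value of 1.37 ± 0.69 (adjusted p = 0.143). COL10A1, the chain of hypertrophic cartilage, had a mean under 100 and rose on day 0 of Ca2+-Sen to 58.3 and 63.9 from 14.6 and 14.8 (2.05 ± 0.54, adjusted p = 0.00052). Of the transmembrane chains, COL13A1 rose on day 1 of PMD-Sen to 1781 and 1798 from 1158 and 1242 (0.58 ± 0.11, adjusted p = 5.34e-06) and of DDR-Sen to 1801 and 1642 (0.52 ± 0.12, adjusted p = 7.82e-05). It fell on day 0 of Ca2+-Sen to 672 and 738 (-0.77 ± 0.12, adjusted p = 3.61e-09). COL17A1, the hemidesmosome chain, had 18.2 and 20.7 reads, rose on day 1 of PMD-Sen to 62.6 and 68.0 (1.75 ± 0.54, adjusted p = 0.00911) and fell on day 8 of Ca2+-Sen to 2.52 and 1.44 (-3.28 ± 1.05, adjusted p = 0.00723).

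The 15 chains with a mean level under 10 were not tested. They were COL2A1 and COL11A2 of the fibrillar class, COL4A3 and COL4A4 of type IV, COL6A5 and COL6A6 of type VI, and the FACIT genes COL9A1, COL19A1, COL20A1, COL21A1 and COL22A1. The others were the transmembrane chain genes COL23A1 and COL25A1, and COL26A1 and COL28A1. COL11A2 was listed at 0 in all groups. Some of the others had more reads on day 0, though few. COL28A1 went from 0 reads in each untreated library to normalized levels of 10.9 and 7.42 in DDR-Sen. In Ca2+-Sen COL21A1 was at 10.1 and 22.3, against 0 and 4.44 in untreated cells, and COL4A3 at 13.8 and 16.9, against 1.22 and 2.96.

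Whether the inducers differed was tested as the difference of 2 log2 fold changes over its standard error. That error is the root of the sum of both squared errors, so the untreated libraries, common to both, enter it 2 times and the calls are too few. On day 0, 18 of 29 chains differed between PMD-Sen and Ca2+-Sen (38.7% of all genes), 18 between PMD-Sen and DDR-Sen (28.7%) and 16 between Ca2+-Sen and DDR-Sen (37.1%). COL24A1 was lower in PMD-Sen than in Ca2+-Sen, with a log2 difference of -2.92 ± 0.46 (PMD-Sen minus Ca2+-Sen, adjusted p = 2.26e-09), and COL11A1 was higher by 2.60 ± 0.36 (adjusted p = 6.67e-12). COL3A1 was lower in PMD-Sen than in either, with differences of -2.50 ± 0.34 from Ca2+-Sen and -2.68 ± 0.35 from DDR-Sen (adjusted p = 8.07e-12 and 1.08e-12). COL15A1 was higher in PMD-Sen than in DDR-Sen, by 2.10 ± 0.29 (adjusted p = 1.25e-11). COL7A1 in Ca2+-Sen less that in DDR-Sen came to -3.18 ± 0.19 (adjusted p = 2.65e-61). The type I chains were lower in Ca2+-Sen than in DDR-Sen, with differences of -1.91 ± 0.17 for COL1A1 and -1.58 ± 0.18 for COL1A2 (adjusted p = 1.86e-28 and 2.18e-17).

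On day 8, 13 chains differed between Ca2+-Sen and DDR-Sen, 12 of them higher in Ca2+-Sen, where 4.89% of all genes differed. The higher ones included COL15A1 (362 and 365 against 109 and 73.9; difference 1.98 ± 0.33, adjusted p = 5.03e-07), COL14A1 (676 and 721 against 208 and 183; 1.84 ± 0.31, adjusted p = 4.77e-07) and COL6A3 (116095 and 115875 against 42207 and 37922; 1.53 ± 0.16, adjusted p = 5.24e-18). The libraries of these genes did not overlap between the groups. COL3A1, COL4A5, COL5A1, COL5A2, COL6A1, COL6A2, COL12A1, COL16A1 and COL18A1 were also higher in Ca2+-Sen, and COL11A1 was lower.

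On day 16 fewer chains were called between inducers than on day 0. Between PMD-Sen and Ca2+-Sen 2 chains differed (2.72% of all genes), COL4A6 by 1.03 ± 0.31 (adjusted p = 0.0358) and COL4A1 by -0.56 ± 0.15 (adjusted p = 0.0142). A limma contrast of the same groups called 7 (25% of all genes). It uses no untreated level, but its error is pooled over the libraries of all 26 groups, the untreated ones included. Between PMD-Sen and DDR-Sen 0 chains differed (0.195% of all genes), with 8 at an unadjusted p under 0.05 (424 of the 14876 genes tested). Limma called 5 (5.96% of all genes), COL6A2, COL6A3, COL15A1 and COL16A1 higher and COL24A1 lower in PMD-Sen. Between Ca2+-Sen and DDR-Sen 7 chains differed (6.39%): COL4A2, COL6A3 and COL12A1 were higher in Ca2+-Sen and COL4A6, COL8A1, COL11A1 and COL14A1 lower. The largest of these differences was that of COL11A1, -1.76 ± 0.40 (adjusted p = 0.000467), followed by COL14A1, -1.45 ± 0.35 (adjusted p = 0.00116). COL4A6 differed by -0.91 ± 0.24 (adjusted p = 0.00392).

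From day 0 to day 16 chains changed with each inducer. In PMD-Sen 13 differed, 9 of them higher on day 16 (28.4% of all genes; 20 by limma, against 62.8%), with COL3A1 (3.50 ± 0.37, adjusted p = 3.40e-19) the largest rise and COL7A1 (-1.60 ± 0.21, adjusted p = 2.56e-13) the largest fall. In Ca2+-Sen 12 differed (34.5%), COL1A1 by 1.43 ± 0.15 and COL1A2 by 1.29 ± 0.15 (adjusted p = 4.51e-21 and 2.06e-15). In DDR-Sen 17 differed (12.7%), 12 of them lower on day 16. COL7A1 fell most (-3.07 ± 0.21, adjusted p = 1.89e-45), and COL4A1 (-1.23 ± 0.16), COL4A2 (-1.40 ± 0.14) and COL6A3 (-1.34 ± 0.21) fell with it.

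Day 16 of the inducers was then set against RS. For PMD-Sen 0 chains differed (0.686% of all genes). At an unadjusted p under 0.05 there were 6 (925 of the 14876 genes tested), and limma called 10 (21.7% of all genes). For DDR-Sen the numbers were 0 (0.148%), 4 (342 of the 14876 genes) and 4 (4.2%). For Ca2+-Sen COL14A1 alone differed, 1 chain against 4.26% of all genes (233 and 173 against 481 and 1143; -2.00 ± 0.48, adjusted p = 0.00161). Limma called 9 there (30.8% of all genes). The standard errors of RS were wide for chains whose libraries stood apart, such as COL8A1 and COL3A1, and these counts therefore do not show that the groups were alike.

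Collagen chains are hydroxylated, folded, exported, trimmed and cross-linked by a set of other proteins, and a list of 41 such genes was examined, of which 39 were tested (PCOLCE2 and TLL1 were too low). On day 0 of PMD-Sen 19 were higher and 7 lower (median log2 fold change 0.31), beside 4 and 15 of the chains and 19.8% and 20.2% of all genes. LOX, which oxidizes lysines for cross-links, rose to 40417 and 42297 from 10600.4 and 10276 (1.99 ± 0.09, adjusted p = 1.34e-111), and MIA2, an export factor, to 1592 and 1677 from 332 and 340.4 (2.28 ± 0.15, adjusted p = 7.83e-52). LOXL1, a related oxidase, fell to 1661 and 1938 from 6429.7 and 5818 (-1.77 ± 0.11, adjusted p = 2.19e-51). On day 1 of PMD-Sen 3 were higher and 20 lower, with a median of -0.30 (9.65% and 10% of all genes, median -0.0011). Among the lower ones was SERPINH1, the collagen chaperone HSP47, at 8884 and 7762 against 20740.2 and 18914 (-1.25 ± 0.09, adjusted p = 3.47e-40).

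On day 0 of Ca2+-Sen 6 genes of the list were higher and 22 lower (median -0.33), beside 23.6% and 26.6% of all genes and their median of -0.036. The lower ones included the enzymes that cut off the N-terminal propeptide, ADAMTS2 (673 and 841 against 2687 and 2821; -1.87 ± 0.12, adjusted p = 1.90e-50) and ADAMTS14 (-2.22 ± 0.45, adjusted p = 3.54e-06). On day 0 of DDR-Sen 9 were higher and 7 lower, SERPINH1 among the lower (-0.83 ± 0.10, adjusted p = 3.54e-14), beside 13% and 14.9% of all genes. On day 16, 1 of the 39 was higher and 7 lower in PMD-Sen (9.64% and 11.6% of all genes), 1 and 10 in Ca2+-Sen (5.79% and 6.09%) and 4 and 12 in DDR-Sen (13.2% and 16.7%). In RS 4 were higher and 6 lower (11.6% and 11.6%), near the shares of all genes. PCOLCE, which speeds removal of the C-terminal propeptide, fell on day 16 of DDR-Sen to 1181 and 1368 from 4878 and 3860.1 (-1.78 ± 0.14, adjusted p = 3.97e-33) and in RS to 1394 and 1349 (-1.67 ± 0.19, adjusted p = 1.51e-17).

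Of 11 collagen receptor genes 7 were tested (DDR1, LAIR1, OSCAR and GP6 were too low). On day 16, 2 were higher and 2 lower in PMD-Sen (median log2 fold change -0.10; 9.64% and 11.6% of all genes), 1 and 3 in Ca2+-Sen (-0.25; 5.79% and 6.09%) and 2 and 2 in DDR-Sen (-0.049; 13.2% and 16.7%). In RS 2 were called, both higher (0.13; 11.6% and 11.6%). ITGA11, the alpha chain of a fibrillar collagen integrin, rose on day 16 of PMD-Sen (3433 and 4085 from 1875 and 1440.1; 1.18 ± 0.18, adjusted p = 1.91e-09), of Ca2+-Sen (2211 and 2325; 0.45 ± 0.12, adjusted p = 0.00317) and of DDR-Sen (3592 and 4157; 1.22 ± 0.15, adjusted p = 3.72e-15). In all 3 the libraries lay above the untreated pair. In RS it had 6950.4 and 14091 reads (2.67 ± 0.34, adjusted p = 1.47e-13). ITGA2, another integrin alpha chain that binds collagen, fell on day 16 of PMD-Sen (4503 and 3191 from 7999 and 9052; -1.15 ± 0.19, adjusted p = 2.21e-08) and DDR-Sen (5119 and 3526; -0.98 ± 0.16, adjusted p = 5.96e-09). On day 0 of PMD-Sen 2 receptors were higher and 1 lower (median -0.16; 19.8% and 20.2% of all genes). The higher ones were ITGA11 (1.22 ± 0.13) and DDR2, a receptor tyrosine kinase for fibrillar collagen (1.16 ± 0.09). The lower one was ITGA10 (-1.03 ± 0.39).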

How the data were processed

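RNA-seq was analysed from 52 libraries of WI-38 cells in 26 groups of 2, grouped by the sample labels. Reads were trimmed with Trim Galore, aligned to GRCh38 (hg38) with HISAT2 and counted per gene, with HTSeq and featureCounts named in the submitters' processing notes; versions are not given in the sources used here. Each deposited table compares 1 treated group with the untreated group, and per the file headers it holds, for 59408 genes, the DESeq2 mean of normalized read counts (a signal divided by the authors' size factors) and the authors' log2 fold change with its standard error. Those comparison columns hold the authors' estimates. They were used because no other column gives the groups' levels, and the authors' own p-values were not used.

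The test was the log2 fold change over its standard error, two-sided, against the normal distribution, adjusted by Benjamini-Hochberg over the 14876 genes whose mean over the 26 groups was 10 or more. Levels were set on 1 scale by 8645 genes above 200 in every table. Whole reads of single libraries were recovered from the deposited means, fold changes and standard errors, for 14873 genes in untreated cells. The size factors this needs were inferred from the means of genes with 1 read in 1 library. Where several solutions fitted equally well, the closest was taken if the others were within 2.5% of it. COL6A3 on day 0 of DDR-Sen and COL6A1 and COL6A2 on day 1 were among these. In all, 15 of 725 values of chains by group were not recovered. Which replicate number a recovered library carries is unknown. Limma 3.58.1 in R 4.3.3 on log2(normalized reads + 1) was the alternative test. It was fitted to all 26 groups together, with the error of each gene pooled over them. Scripts ran in Python 3.11.15 with pandas 2.3.3 and scipy 1.17.1 and were tested on simulated data.

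The chains and gene lists were chosen with earlier results of these data known. Chains of mean level 100 or more were described by name, with values for the 3 largest called changes each way in a comparison, and 3 genes of each list; values beyond these were chosen after they were seen. The labels do not say that the 2 libraries of a group came from separate cultures. The paper states that 2 independent samples were sequenced, without saying whether they were separate cultures. The p-values therefore measure the spread between libraries, which may be technical.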

Additional observations from a re-analysis of the deposited data

Results flagged for a closer look

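These are differences between the effects of 2 inducers against the same untreated cells, each from a test of the difference itself (two-sided, Benjamini-Hochberg adjusted over all genes tested). Up to 3 of the largest called differences of each pair and day examined are given. On day 0 the log2 difference of PMD-Sen less Ca2+-Sen was -2.92 for COL24A1, 2.60 for COL11A1 and -2.50 for COL3A1. PMD-Sen less DDR-Sen gave -2.68 for COL3A1, 2.10 for COL15A1 and -1.89 for COL4A6. Ca2+-Sen less DDR-Sen gave -3.18 for COL7A1, -1.91 for COL1A1 and -1.58 for COL1A2. On day 8 Ca2+-Sen less DDR-Sen was 1.98 for COL15A1, 1.84 for COL14A1 and 1.53 for COL6A3. On day 16 PMD-Sen less Ca2+-Sen was 1.03 for COL4A6 and -0.56 for COL4A1, and Ca2+-Sen less DDR-Sen was -1.76 for COL11A1, -1.45 for COL14A1 and -0.91 for COL4A6. No group had 4 or more libraries, so none could be examined for a library far from the others.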

How the results depend on the processing

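The precision of all values is limited by 2 libraries a group, by untreated libraries that differed by a median of 0.34 (log2) over the chains, and by all days sharing them. The numbers of chains called in the 14 comparisons with untreated cells stayed within 1.5 times under a median of 0, no filter, a mean of at least 100 and scaling by library totals. A log2 fold change of at least 1 was also asked for, a stricter rule by its construction. It left 8, 13, 11 and 4 on days 0, 1, 2 and 16 of PMD-Sen (15.1%, 4.52%, 2.19% and 7.39% of all genes). In Ca2+-Sen it left 11, 2, 2, 7 and 2 on days 0, 1, 2, 8 and 16 (17.9%, 2%, 0.417%, 8.32% and 2.02%). In DDR-Sen it left 4, 4, 4 and 8 on days 0, 1, 2 and 16 (8.05%, 4.8%, 3.44% and 9.67%). In RS it left 4 (10.2%). Limma on recovered reads stayed within 1.5 times in 18 of 27 comparisons, by the number called alone. In PMD-Sen limma called 19 of 27 chains on day 0 (58% of all genes) and 20 of 28 on day 1 (32.7%). There it called 22 of 29 on day 2 (22%) and 12 of 29 on day 16 (46%). In Ca2+-Sen it called 17 of 29 on day 0 (61%) and 9 on day 1 (18.3%). On days 8 and 16 it called 15 (45.1%) and 9 (17.9%). In DDR-Sen it called 7 of 29 on day 0 (42.3%) and 12 of 28 on day 1 (31.8%). Day 16 had 15 of 29 (48.9%). Outside 1.5 times it gave 5 on day 2 of Ca2+-Sen, 9 on day 2 of DDR-Sen and 17 in RS. Between inducers on day 16 it gave 7 for PMD-Sen against Ca2+-Sen and 5 for PMD-Sen against DDR-Sen. For day 16 against day 0 of PMD-Sen it gave 20, and for day 16 against RS 10 in PMD-Sen, 9 in Ca2+-Sen and 4 in DDR-Sen. The cause was not tested. Of 194 single changes of named chains, 163 stayed called by limma, 31 did not and 0 reversed, and 196 were the same with the median set to 0. Not all of the 31 are marked where the changes are given.

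The comparisons over time and with RS by limma, and the leaving out of single libraries between treated groups, were chosen after seeing the data. Each library was left out in turn, on recovered reads with limma and the lone library assumed to vary like the others. The share of all genes called was not computed for these fits. They therefore do not show whether chains were called more often than other genes. The number of chains called ran as follows. Against untreated cells it was 13 to 18 in PMD-Sen on day 0, 16 to 20 on day 1, 16 to 21 on day 2 and 9 to 13 on day 16. In Ca2+-Sen it was 12 to 18 on day 0, 3 to 7 on day 1, 2 to 5 on day 2, 10 to 14 on day 8 and 3 to 9 on day 16. In DDR-Sen it was 4 to 6 on day 0, 7 to 10 on day 1, 6 to 10 on day 2 and 12 to 16 on day 16, and in RS 12 to 19. The lowest counts of Ca2+-Sen on days 1 and 16 (3 and 3), of DDR-Sen on days 0, 1, 2 and 16 (4, 7, 6 and 12) and of RS (12) came without the untreated library of the larger size factor. On day 2 of Ca2+-Sen the lowest, 2, came without its own larger library, and on day 8 the lowest, 10, without its smaller one. Between inducers it was 17 to 21 (PMD-Sen against Ca2+-Sen), 18 to 20 (PMD-Sen against DDR-Sen) and 14 to 15 (Ca2+-Sen against DDR-Sen) on day 0, and 8 to 13 for the last pair on day 8, with 8 without the smaller DDR-Sen library. On day 16 it was 2 to 9, 0 to 9 and 5 to 7 for the same pairs, with 9 in the first and second pairs without the larger PMD-Sen library. For day 16 against day 0 it was 17 to 19 in PMD-Sen, 11 to 12 in Ca2+-Sen and 12 to 15 in DDR-Sen. For day 16 against RS it was 7 to 13 in PMD-Sen, 5 to 16 in Ca2+-Sen and 2 to 11 in DDR-Sen, in each case highest without the larger RS library (13, 16 and 11).

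No paired analysis was possible because the recovered libraries carry no replicate number.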
